A study of Mus musculus with 12 samples.

Results

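Bone morphogenetic proteins (BMPs) and the genes that receive or restrain their signal were followed in the embryonic mouse heart. The group held 10 genes of the 19057 measured, chosen by name: the ligands Bmp2, Bmp4, Bmp5, Bmp7 and Bmp10, the secreted modulator Bmper, the type I receptors Acvr1 and Bmpr1a, and the inhibitory Smads Smad6 and Smad7. They were carried by 15 probes on the array, and each gene was represented by its probe with the highest mean over all arrays. RNA came from the atrioventricular canal (AVC), where the endocardial cushions of the future valves form, and from the primary ventricle, labelled LV, as whole dissected tissue at embryonic days 10 (E10) and 9 (E9). The 4 groups were AVC E10, AVC E9, LV E10 and LV E9, with 3 arrays each and no treatment or engineered allele named in the labels. The labels and methods name no strain, number of embryos pooled or litter for the replicates, so the p-values measure the spread between these arrays, which may be technical.

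BMP ligands are secreted dimers that bring type I and type II receptor kinases together at the cell surface. The type I receptor then phosphorylates Smad1, Smad5 and Smad9, which enter the nucleus with Smad4 and switch on targets such as the Id and Msx genes. In the mouse AVC, Bmp2 from the myocardium is known to be required for AVC identity and for the endocardium to form cushion mesenchyme, while Bmp10 is known from the trabeculating ventricle.

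The values were background-subtracted intensities on a linear scale, and an array's limit for background was the size of its most negative value, between 22.4 and 29.6, which a probe had to pass. On all 12 arrays, 7 of the 10 genes passed it. Bmp2 did so on 5 of 6 AVC arrays and 0 of 6 LV arrays, Bmp10 on 0 of 6 AVC arrays and 1 of 6 LV arrays, and Smad7 on none. Differences are given as log2 values with their SE from a limma fit of all 12 arrays, with Benjamini-Hochberg adjustment of p across the 19057 genes and a call at an adjusted p under 0.05. Only 3 arrays per group limit the precision. In whole tissue, fewer cells of a type and less RNA per cell cannot be told apart.

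Dissection was checked with marker genes. The 4 AVC myocardium markers summed to between 1442 and 2752 on AVC E10 arrays and between 1922 and 3104 on AVC E9 arrays, against 124 to 308 on LV E10 arrays and 229 to 493 on LV E9 arrays. The sum of the 9 measured chamber myocardium markers went the other way, at 44049 to 45355, 32573 to 45078, 76853 to 80633 and 73872 to 80336 in the same order of groups. Of these markers, Nppa, Nppb, Irx2 and Gja1 lay wholly lower in the AVC at both ages. Irx3, Irx4, Gja5, Myl2 and Hey2 overlapped between the tissues at E10. In AVC E9 Gja5 averaged 488 against 433 in LV E9, and Irx3 290 against 292. Of the AVC myocardium markers, Rspo3 was reported by the paper as AVC-enriched from its own arrays, so its direction is not independent. Tbx2 and Tbx3 also lay wholly higher in the AVC at both ages, while Cacna1g overlapped between the tissues at E9. The 7 cushion mesenchyme markers summed to 5947 to 7329 in AVC E10, 3286 to 4802 in AVC E9, 1112 to 1941 in LV E10 and 843 to 1260 in LV E9. Of these 7, 5 were above background on all 3 arrays in AVC E10, 6 in AVC E9, 5 in LV E10 and 5 in LV E9. The tissue labels were thus matched by the list sums, though not by every marker in the lists. The 5 measured atrium and sinus venosus markers summed to 367 to 1326 in AVC E10, 342 to 467 in AVC E9, 36.1 to 72.6 in LV E10 and 13.1 to 52.0 in LV E9, with 3, 3, 1 and 0 of the 5 above background on all 3 arrays in that order. The sums of both these lists were higher in the AVC, as were Bmper and Bmp2, and their part in those differences was not tested. On correlation over the 8340 genes above background on all 12 arrays, 3 arrays had their closest array in another group. These were AVC E10 replicate 1 and AVC E9 replicate 2, which were closest to each other, and LV E10 replicate 1. Results that rest on these arrays are given with and without them.

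**Figure D1:**
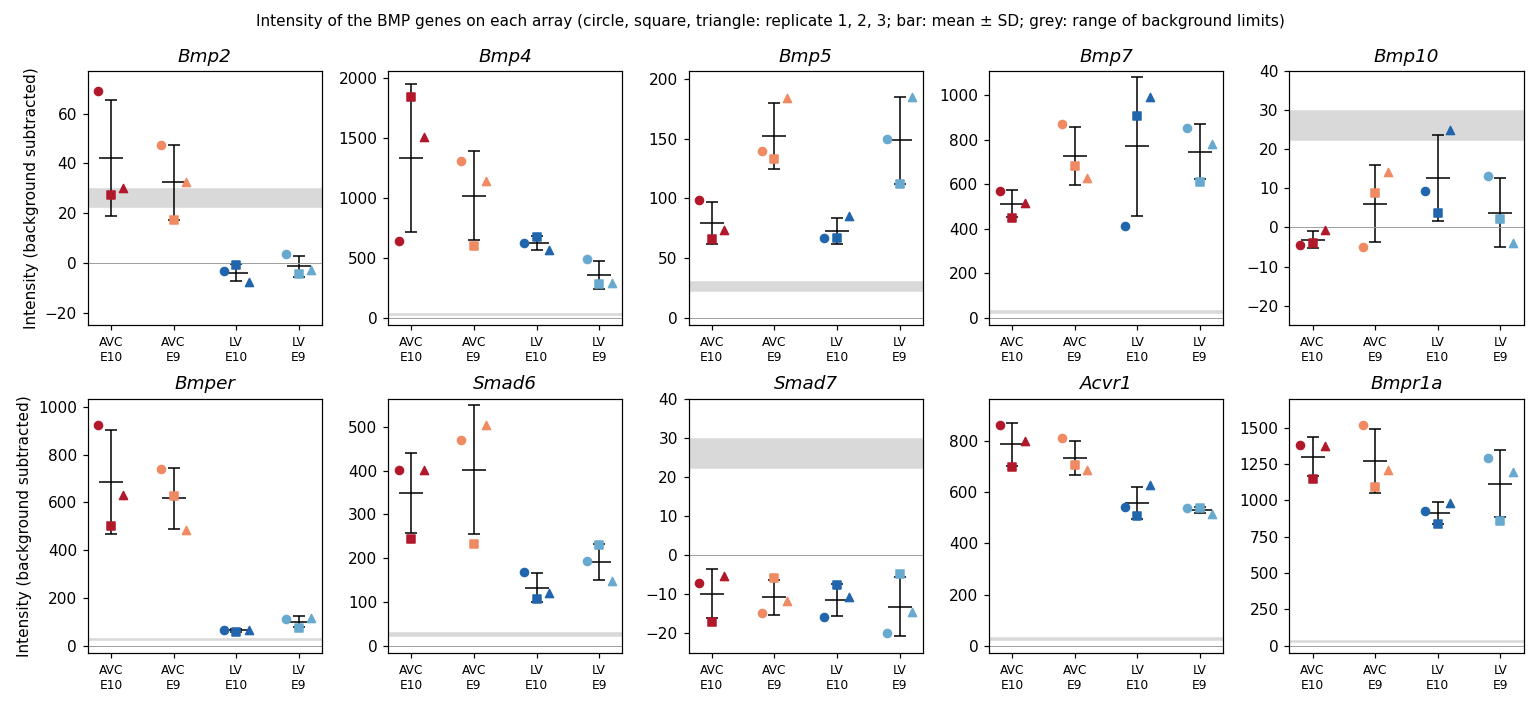
Background-subtracted intensity of each of the 10 genes on every array, with each gene on its own axis. Symbols mark the replicates, bars the mean ± SD of 3 arrays, and the grey band the range of background limits (22.4 to 29.6). Bmper on AVC arrays stood between 486 and 924, above every LV array, while Smad7 lay under the band on all arrays.

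Of the 10 genes, 2 were called higher in AVC E10 than in LV E10, the secreted modulator Bmper and the ligand Bmp2, against 2.06% of all genes called higher. At E9 the same 2 genes were called higher, against 0.855% of all genes. The 10 genes were chosen with earlier results of these data known, so their counts are not independent of the choice. Without a threshold on p, 5 genes lay wholly higher in AVC E10 than in LV E10 (14.4% of all genes did) and 5 wholly higher in AVC E9 than in LV E9 (13%), of which Bmp2, Bmper, Smad6 and Acvr1 did so at both ages. Bmp10, at background level, was the 1 gene wholly lower in AVC E10 (3.72% of all genes). The median difference of the 10 genes was 0.50 at E10 and 0.59 at E9, beside 0.07 and 0 over all genes.

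Bmp2 was dim, and its probe is the only one for the gene. In AVC E10 it read 68.9, 27.5 and 29.96, and in AVC E9 47.5, 17.3 and 32.3, of which 17.3 on replicate 2 was not above background. In LV E10 it read −3.41, −0.870 and −7.62, and in LV E9 3.57, −4.52 and −2.87. Every AVC array lay above every LV array at both ages. Bmp2 was called higher in the AVC at E10 (adjusted p = 0.00617) and at E9 (adjusted p = 0.0208). Because no LV array was above background, only a bound can be given: Bmp2 was at least 1.54-fold higher in AVC E10 than in LV E10, taking the LV level as the lowest signal still above background. No bound is given at E9, where an AVC array was not above background. Within the AVC the means were 42.1 ± 23.2 at E10 and 32.4 ± 15.1 at E9 (SD, n = 3 each), and the ranges overlapped. Both calls depended on the floor set under low values, with adjusted p = 0.210 at E10 and 0.568 at E9 when values under 16 were set to 16 instead of those under 1. The E9 call was also lost without AVC E9 replicate 1 or 3, without LV E9 replicate 2 or 3, and when only the AVC E9 and LV E9 arrays were fitted (adjusted p = 0.127).

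Bmp4, a close relative of Bmp2 and a well known ligand of the outflow tract and second heart field, was bright in both tissues. It read 645, 1841 and 1513 in AVC E10, 1312, 602 and 1139.8 in AVC E9, 627, 677 and 565 in LV E10, and 494, 284 and 292 in LV E9. In each AVC group 1 array stood well under the other 2, replicate 1 at E10 and replicate 2 at E9, the arrays that were closest to each other by correlation. At E9 the tissues did not overlap, with a difference of 1.49 ± 0.44 (2.80-fold, 95% interval 0.48 to 2.49) that missed the threshold (adjusted p = 0.199). At E10 they overlapped, with a difference of 0.97 ± 0.44 (95% interval −0.04 to 1.97, adjusted p = 0.386). Without AVC E10 replicate 1 the E10 difference was 1.42 (adjusted p = 0.121), and without AVC E9 replicate 2 the E9 difference was 1.83 (adjusted p = 0.151).

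The dimmer Bmp4 probe carried the same dips. It read 49.3, 99.8 and 99.2 in AVC E10, 106, 27.5 and 99.6 in AVC E9, 21.3, 30.5 and 29.7 in LV E10, and 41.8, 17.6 and 20.8 in LV E9. Both probes were thus lowest on AVC E10 replicate 1 and on AVC E9 replicate 2. The dimmer probe passed the background limit on 6 of 6 AVC arrays and 3 of 6 LV arrays, with differences of 1.55 ± 0.57 at E10 and 1.42 ± 0.57 at E9. Some marker lists had their lowest sums on these arrays as well, and others their highest. The 5 second heart field and outflow tract markers were lowest on those arrays within their groups, with sums of 136, 203 and 317 in AVC E10 (1 of 5 above background on all 3 arrays) and 438, 302 and 500.3 in AVC E9 (3 of 5). In the LV those sums were 129, 19.9 and 8.79 at E10 (0 of 5) and 189, 144 and 248 at E9 (3 of 5). The atrium and sinus venosus sums were 367, 1326 and 1108 in AVC E10 and 349, 342 and 467 in AVC E9, again lowest on the same arrays, though only narrowly in AVC E9. On AVC E10 replicate 1 the epicardium, endothelium, cushion mesenchyme, erythroid, and foregut and hepatic endoderm sums were the lowest of the group. None of these was lowest on AVC E9 replicate 2. The AVC myocardium sum was highest on AVC E10 replicate 1 and lowest on AVC E9 replicate 2. The chamber myocardium sums were highest on both arrays within their groups, though only narrowly in AVC E10. They were 45355, 45230 and 44049 in AVC E10 and 35063, 45078 and 32573 in AVC E9. The part of these cells in the Bmp4 values was not tested. When AVC E10 replicate 1, AVC E9 replicate 2 and LV E10 replicate 1 were left out together, Bmp4 was 1.43 at E10 (adjusted p = 0.0520) and 1.83 at E9 (adjusted p = 0.0477), a setting chosen after the arrays had been compared.

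**Figure D2:**
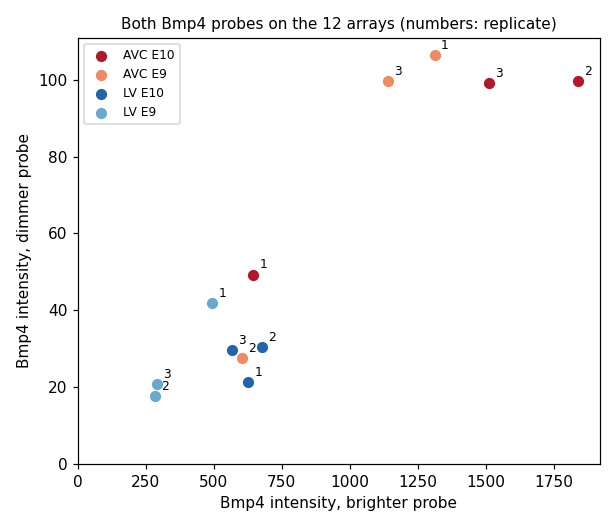
Intensity of the dimmer Bmp4 probe (vertical axis) against the brighter one (horizontal axis) on the 12 arrays, coloured by group and numbered by replicate. AVC E10 replicate 1 and AVC E9 replicate 2 were the lowest of their groups with both probes, at 645 and 602 with the brighter one.

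Bmp5, a ligand of the subgroup that also holds Bmp7, had values that separated the ages and not the tissues. It read 99.0, 65.7 and 73.7 in AVC E10, 139.9, 133 and 184 in AVC E9, 66.6, 66.8 and 85.1 in LV E10, and 149.9, 112 and 185 in LV E9. All E10 arrays lay below all E9 arrays in both tissues. The age difference was −0.94 ± 0.23 in the AVC (0.519-fold, 95% interval −1.47 to −0.42, adjusted p = 0.120) and −1.01 ± 0.23 in the LV (0.496-fold, 95% interval −1.53 to −0.49, adjusted p = 0.0595). Neither passed the threshold. The LV value was called in some other settings, with adjusted p = 0.0283 when dim genes were left out of the test, 0.0493 without AVC E10 replicate 1 and 0.0206 on a log2 scale of value plus 50, on which the AVC value was called as well (adjusted p = 0.0380). Between the tissues the differences were 0.11 at E10 (95% interval −0.41 to 0.63) and 0.05 at E9 (95% interval −0.47 to 0.57), and both changed sign under other scalings of the arrays. The 4 measured epicardium markers had higher sums at E10, with 3731 to 4849 in AVC E10, 487 to 677 in AVC E9, 2150 to 5732 in LV E10 and 174 to 515 in LV E9. All 4 were above background on all 3 arrays in AVC E10, 2 in AVC E9, 3 in LV E10 and 2 in LV E9. The 8 endocardium and endothelium markers, 7 of them above background on all 3 arrays of every group, summed to 4873 to 6278 in AVC E10, 2676 to 3870 in AVC E9, 5148 to 6728 in LV E10 and 3346 to 3817 in LV E9. Neither list overlapped between the ages in either tissue, the second heart field sums given above were lower in LV E10 than in LV E9, and the part of these cells in the Bmp5 values was not tested.

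**Figure D3:**
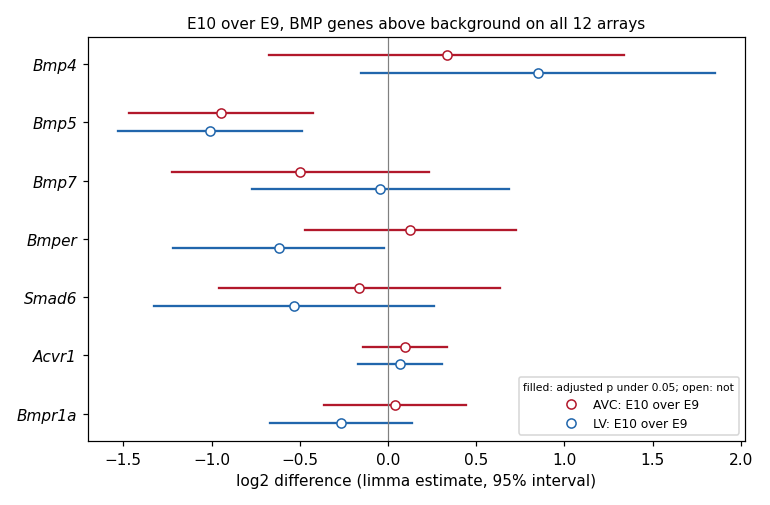
Log2 difference of E10 over E9 in the AVC and in the LV, with the 95% interval of the limma fit, for the 7 genes above background on all 12 arrays; open points were not called. The Bmp5 points are at −0.94 for the AVC and −1.01 for the LV, and all points are open.

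Bmp7, a ligand made widely in the early heart, was bright on every array. It read 571, 450.1 and 514 in AVC E10, 872, 681 and 626 in AVC E9, 409.96, 907 and 989.8 in LV E10, and 849.7, 609.6 and 778 in LV E9. In the AVC all E10 arrays lay below all E9 arrays, with a difference of −0.50 ± 0.32 (95% interval −1.23 to 0.23, adjusted p = 0.638). In LV E10 replicate 1 stood far under the other 2, and this array decided the comparison of the tissues. With it the E10 difference was −0.49 ± 0.32 (adjusted p = 0.594), and without it −0.90 (adjusted p = 0.0466), so that Bmp7 was called lower in AVC E10 than in LV E10. When AVC E10 replicate 1 and AVC E9 replicate 2 were left out as well, it was −0.98 and missed the threshold (adjusted p = 0.0601). The same array had the highest sum of the 6 foregut and hepatic endoderm markers, 2353 against 429 and 89.4 on the other LV E10 arrays, with 1 of the 6 above background on all 3 arrays. In every other marker list too, LV E10 replicate 1 had the highest or the lowest sum of its group. The epicardium sum was 2150 against 4632 and 5732, and the AVC myocardium sum 308 against 128 and 124. The part of these differences in the Bmp7 value was not tested. At E9 the difference was −0.04 ± 0.32 (95% interval −0.77 to 0.69). A further Bmp7 probe was above background on 1 array, AVC E9 replicate 3 at 27.96.

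Bmp10 could not be followed at this sensitivity. Its brighter probe was above background on a single array, LV E10 replicate 3 at 24.96, and lay between −4.95 and 14.2 on the others. The other probe was above background on none, between −7.18 and 11.2. No fold is given, and neither presence nor absence of the transcript can be read from these probes.

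Bmper, a secreted protein with chordin-like domains that binds BMPs outside the cell and can dampen or promote their signal, showed the clearest difference between the tissues. Its intensities were 924, 502 and 632 in AVC E10, 740.2, 625 and 486 in AVC E9, 66.4, 58.4 and 65.7 in LV E10, and 110.2, 72.9 and 115 in LV E9. No AVC array came near an LV array at either age. The difference was 3.39 ± 0.26 at E10 (10.5-fold, 95% interval 2.79 to 3.99, adjusted p = 0.00125). At E9 it was 2.64 ± 0.26 (6.24-fold, 95% interval 2.04 to 3.24, adjusted p = 0.00593). The larger fold at E10 went with a lower level in LV E10 than in LV E9 (63.5 ± 4.41 and 99.4 ± 23.1, SD, n = 3 each), whereas the AVC held 686 ± 216 at E10 and 617 ± 127 at E9. The LV groups did not overlap, but that age difference missed the threshold (−0.62 ± 0.26, adjusted p = 0.238), and the difference between the tissue differences did too (0.75 ± 0.37, adjusted p = 0.937). When only the AVC E9 and LV E9 arrays were fitted, the E9 call was lost (adjusted p = 0.0579).

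**Figure D4:**
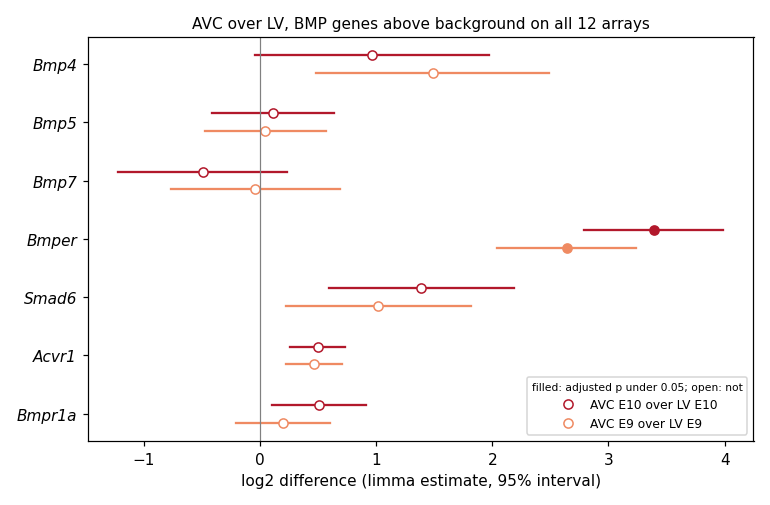
Log2 difference of AVC over LV at E10 and at E9, with the 95% interval of the limma fit, for the 7 genes above background on all 12 arrays; filled points were called. Only Bmper has filled points among these 7, at 3.39 for E10 and 2.64 for E9.

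Promoters of 7 of the 10 genes were taken from the RefSeq table (build GRCm38.p6), each spanning 250 bases before to 50 after the annotated start. Bmp2, Bmp7 and Smad7 were not among the promoters searched, so nothing can be said of their sequence. The windows were searched for GGAGCC and GGCGCC, GC-rich boxes bound by BMP Smads, and for GTCTAGAC, the palindromic Smad motif, on both strands. The promoters of Bmper, the gene with the clearest tissue difference, and of Smad6, a known BMP target, are shown with matches in capitals. Bmper lies on the plus strand at chr9:23222826-23223125 and Smad6 on the minus strand at chr9:64022010-64022309.
Bmper: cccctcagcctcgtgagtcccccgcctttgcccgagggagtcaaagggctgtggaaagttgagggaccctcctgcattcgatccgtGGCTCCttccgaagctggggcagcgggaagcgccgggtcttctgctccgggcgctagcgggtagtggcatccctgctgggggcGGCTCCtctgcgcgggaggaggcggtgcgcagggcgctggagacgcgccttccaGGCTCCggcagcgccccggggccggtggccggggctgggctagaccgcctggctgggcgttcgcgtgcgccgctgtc
Smad6: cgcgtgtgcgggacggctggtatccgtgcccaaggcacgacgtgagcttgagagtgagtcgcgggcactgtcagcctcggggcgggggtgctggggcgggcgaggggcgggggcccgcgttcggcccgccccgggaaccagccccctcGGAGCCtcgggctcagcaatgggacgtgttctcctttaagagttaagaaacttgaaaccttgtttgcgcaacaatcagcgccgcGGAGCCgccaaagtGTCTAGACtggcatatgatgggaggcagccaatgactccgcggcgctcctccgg
Bmper held 3 copies of GGAGCC, all read on the opposite strand as GGCTCC, 164, 81 and 27 bases before the start. Smad6 held 2 copies, 102 and 18 bases before the start, and 1 copy of GTCTAGAC that began 4 bases before the start and ran across it. GGAGCC was present in 30.8% of the 32851 promoters in the table, GGCGCC in 11.9% and GTCTAGAC in 0.213%. Of the other genes Acvr1 had 2 copies of GGAGCC, Bmp4 had 1 and Bmpr1a had 1 copy of GGCGCC, while Bmp5 and Bmp10 had none of these letters in the window. These matches describe the sequence only.

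Acvr1 and Bmpr1a were bright on every array and were not called. Acvr1, also called Alk2, the receptor through which Bmp7 and related ligands act, read 864, 698 and 803 in AVC E10, 813, 707 and 688 in AVC E9, 541, 506 and 629.6 in LV E10, and 539, 539 and 517 in LV E9. The AVC arrays lay above the LV arrays at both ages, by 1.41-fold at E10 (0.50 ± 0.10, 95% interval 0.26 to 0.73, adjusted p = 0.0518) and 1.38-fold at E9 (0.47 ± 0.10, 95% interval 0.23 to 0.70, adjusted p = 0.0940). Neither passed the threshold, although the E10 value did without LV E10 replicate 3 (adjusted p = 0.0416) and on the log2 scale of value plus 50 (adjusted p = 0.0405). Between the ages the Acvr1 difference was 0.10 in the AVC and 0.07 in the LV. Its other probe was above background on none of the arrays.

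Bmpr1a, or Alk3, the main type I receptor for Bmp2 and Bmp4, read 1379.7, 1148 and 1376 in AVC E10, 1518, 1092 and 1210.2 in AVC E9, 924, 835 and 982 in LV E10, and 1291, 855 and 1197 in LV E9. The tissues were apart at E10 by 1.42-fold (0.51 ± 0.18, 95% interval 0.11 to 0.91, adjusted p = 0.217) and overlapped at E9 (0.20 ± 0.18, 95% interval −0.20 to 0.60, adjusted p = 0.784). Its other probe read 304, 204 and 172 in AVC E10, 220.1, 243 and 226 in AVC E9, 214, 153 and 183 in LV E10, and 201, 184 and 153 in LV E9, and overlapped between the tissues at E10 only. It gave 0.27 ± 0.21 at E10 and 0.36 ± 0.21 at E9, so that the probes did not rank the ages alike. The size of both receptors' differences varied with the scaling of the arrays. Over the 8340 genes that passed the limit on every array, the median of AVC over LV at E10 was 0.16 on the deposited scale, 0.01 after quantile normalization and −0.09 after scaling to a common 75th percentile. Under those scalings Acvr1 was 0.35 and 0.24, and Bmpr1a 0.38 and 0.25.

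Smad6, an inhibitory Smad that blocks the type I receptors and is itself induced by BMP signaling, and whose promoter is printed with that of Bmper, was brighter in the AVC without reaching a call. It read 402, 244 and 401 in AVC E10, 469.6, 233 and 504 in AVC E9, 169, 108 and 120.4 in LV E10, and 194, 231 and 148 in LV E9. All AVC arrays lay above all LV arrays of the same age, although AVC E9 replicate 2 passed the highest LV E9 array only narrowly. The differences were 1.39 ± 0.35 at E10 (2.62-fold, 95% interval 0.59 to 2.19, adjusted p = 0.0934) and 1.02 ± 0.35 at E9 (2.03-fold, 95% interval 0.22 to 1.81, adjusted p = 0.276). The E10 value passed the threshold without AVC E9 replicate 2 (adjusted p = 0.0444), when dim genes were left out of the test (adjusted p = 0.0377), on the log2 scale of value plus 50 (adjusted p = 0.0215) and without the 3 arrays that were closest to another group (adjusted p = 0.0479). It missed the threshold in every other alternative run. AVC E9 replicate 2 is not in the E10 comparison and enters only through the shared fit. The E9 value was called in no alternative, also not without that array. Smad7, the related inhibitor that acts on BMP and TGF-beta receptors, had 1 probe, which read between −19.9 and −4.92 and was above background on no array.

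With age, 0 of the 10 genes were called by limma in the AVC, against 0.551% of all genes, and 0 in the LV, against 2.37%. At an unadjusted p under 0.05 the counts were 1 in the AVC (Bmp5) and 2 in the LV (Bmp5 and Bmper). The share of all genes under that unadjusted p was not counted, so these counts cannot be set against it. The groups did not overlap for 2 genes in the AVC, both lower at E10 (7.05% of all genes), and for 3 in the LV, of which 2 were lower (13.5% of all genes) and 1, Bmp4, was higher (9.33%). Bmp4 in the LV differed by 0.85 ± 0.44 (95% interval −0.15 to 1.86, adjusted p = 0.345). The difference of the tissue differences between the ages was called for 0 genes, against 0.0315% of all genes, and 0 had an unadjusted p under 0.05 in it.

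The rest of the pathway was taken from a list of 60 gene symbols, of which 54 were measured and 33 were above background on at least 1 array. At E10, 5 of the 54 were called higher in the AVC (2.06% of all genes were) and 0 lower, and at E9 4 higher (0.855% of all genes) and 0 lower. None of the 8 other ligands, 9 other receptors and co-receptors, 18 extracellular inhibitors and modulators or 3 chordin-cleaving proteases was called in any comparison. The calls fell on 1 of 7 intracellular genes and, at each age, on 4 of the 9 targets, some of which were listed as known AVC genes, so their direction is not independent of the choice. The median of the list was 0.62 at E10 and 0.21 at E9, beside 0.07 and 0 over all genes. Over the 33 genes above background on an array it was 0.95 at E10 and 0.56 at E9, beside 0.19 and 0.08 over all genes chosen in the same way. That filter lets a gene in through the group where it is high, as with Bmp15, above background on 1 AVC E10 array only. These medians are therefore partly set by the filter. With age, limma called 0 of the 54 in the AVC (0.551% of all genes) and 1 higher and 1 lower in the LV (2.37% of all genes in either direction). In the AVC 9 of the 54 had an unadjusted limma p under 0.05, a threshold at which the share of all genes was not counted. Bmpr1b, a further type I receptor named here after its values were seen, was not called but lay wholly lower in the AVC at both ages. It averaged 39.2 ± 3.91 in AVC E10 against 103 ± 36.4 in LV E10 (−1.33 ± 0.58, adjusted p = 0.357), and 31.6 ± 24.6 in AVC E9, where 2 of 3 arrays were above background, against 179.8 ± 27.9 in LV E9 (−2.86 ± 0.58, adjusted p = 0.0682).

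Smad1, which carries the signal of the type I receptors, averaged 1046 ± 115 in AVC E10 and 667 ± 45.8 in LV E10 (SD, n = 3 each) and was called at E10 (log2 difference 0.65, adjusted p = 0.0427). Id2, a direct target that inhibits basic helix-loop-helix factors, averaged 3817 ± 145 in AVC E10 against 1683 ± 320.1 in LV E10, and 3053 ± 296 in AVC E9 against 1167 ± 97.9 in LV E9 (log2 differences of 1.20 at E10, adjusted p = 0.00602, and 1.39 at E9, adjusted p = 0.00486). Msx1, a homeobox target of BMP signaling, averaged 973 ± 173 in AVC E10 against 96.3 ± 25.4 in LV E10, and 856 ± 209 in AVC E9 against 206 ± 29.8 in LV E9 (3.35 at E10, adjusted p = 0.00102, and 2.03 at E9, adjusted p = 0.0142). Id2 and Msx1 were thus called higher in the AVC at both ages, as Bmper and Bmp2 were, and Smad1 at E10. Tbx2, the repressor of chamber genes that Bmp2 induces in the AVC, averaged 189.6 ± 23.5 in AVC E10 and 268 ± 69.8 in AVC E9, against 17.2 ± 14.7 in LV E10 and 18.0 ± 11.0 in LV E9, where 1 of 3 arrays was above background at each age (adjusted p = 0.0260 and 0.0324).

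Has2, the synthase of the hyaluronan that swells the cushions, averaged 473 ± 212 in AVC E10 against 64.6 ± 22.4 in LV E10 (2.84, adjusted p = 0.0122), and 979 ± 198 in AVC E9 against 268 ± 76.8 in LV E9 (1.89, adjusted p = 0.0627). It was called lower in LV E10 than in LV E9 (−2.07, adjusted p = 0.0367). In AVC E10 all arrays also lay below those of AVC E9, without a call (−1.12, adjusted p = 0.247), and the difference between these age differences was not called (adjusted p = 0.937). Atoh8, a basic helix-loop-helix target, averaged 26.7 ± 1.86 in AVC E9 against −0.680 ± 4.77 in LV E9 (adjusted p = 0.0301). It averaged 32.3 ± 17.9 in LV E10, also called higher than LV E9 (adjusted p = 0.0255). All of these are close to the background limit, and no fold is given.

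**Figure D5:**
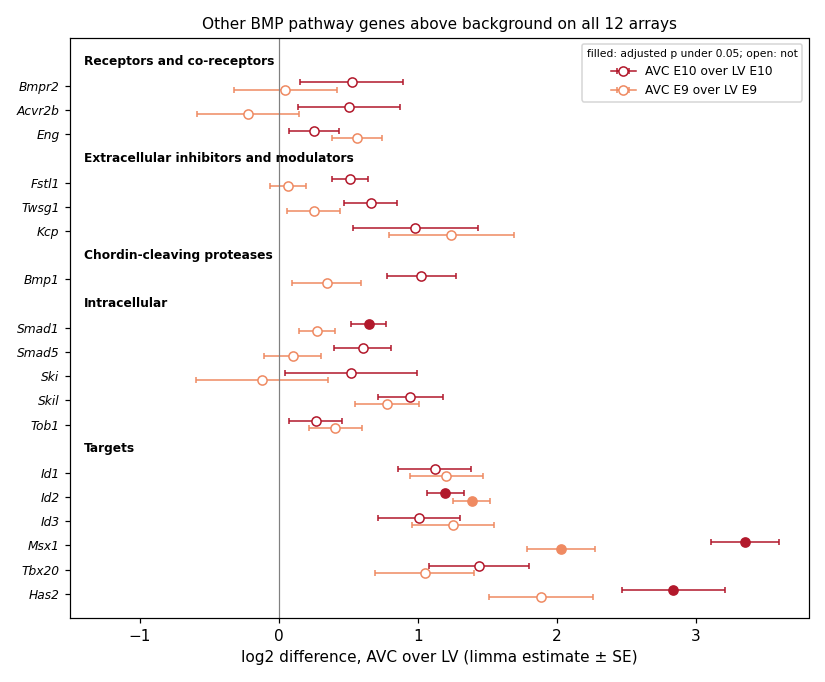
Log2 difference of AVC over LV at E10 and at E9 (limma estimate ± SE) for the 18 other pathway genes above background on all 12 arrays, grouped by role; filled points were called. Msx1 lies at 3.35 for E10 and 2.03 for E9, and Smad1 at 0.65 for E10.

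Genes with a like pattern were sought among 8339 other genes above background on all 12 arrays, by the root mean square difference of log2 values, each gene centred on its own mean over the 12 arrays. Msx1 was nearest to Bmper (0.32), followed by Shisa2 (0.33), which encodes a regulator of Wnt and FGF receptor maturation, and Gal (0.36), the precursor of the neuropeptide galanin. Shisa2 averaged 1158 ± 93.6 in AVC E10, 1129 ± 159.7 in AVC E9, 105 ± 30.7 in LV E10 and 149.8 ± 23.8 in LV E9. For Bmp4 the nearest genes were Sfrp1 (0.19), a secreted Wnt inhibitor, Sbk1 (0.32), a kinase gene, and Igsf9 (0.35), which encodes an immunoglobulin superfamily protein. Sfrp1 ran from 891 to 1521 in AVC E10, 588 to 1137 in AVC E9, 576 to 636 in LV E10 and 311 to 506 in LV E9.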

How the data were processed

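RNA of 12 samples was labelled as biotinylated cRNA and read on Illumina Mouse WG-6 v2 arrays. The deposited values are intensity on a linear scale, background subtracted and scaled by the authors to a common mean of 386 per array, and 34.7% of values were below 0. Neither the labels nor the methods say which program made them or which chip held which sample; GeneSpring GX is named for the study's own comparisons.

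Gene symbols were taken from the platform annotation, in which 34885 of 45281 probes had 1 gene symbol, 18 several and 10378 none. Values under 1 were set to 1 (36.8% of values) and log2 transformed. The 4 groups were fitted together with limma 3.58.1 (with statmod 1.5.0 and the data.table package, version 1.17.8) in R 4.3.3, moderated over all probes, with 5 contrasts. P-values are two-sided, adjusted by Benjamini-Hochberg over the 19057 genes. Fold changes are of geometric means, and means ± SD of intensities are arithmetic. Sequence work used Python 3.11.15 and plots matplotlib 3.10.9. The fit was tested on simulated data. An exact permutation test of 3 against 3 arrays cannot go below p = 0.1 and was not used.

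Genes named were the 10 members, every pathway gene called in a contrast together with Tbx2, Id2 and Msx1, and the 3 genes nearest in pattern to Bmper and Bmp4. The same was planned for Bmp10, which was not above background. Markers are given as list sums. Members and lists were chosen with earlier results of these data known.

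Alternatives were other scalings, floors and filters, the compared groups alone, the replicate number as a block, an intensity trend with a robust prior, each array left out and, added after seeing the data, 3 arrays left out together.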

Additional observations from a re-analysis of the deposited data

How the results depend on the processing

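Bmper and Bmp2 were called in AVC over LV at E10 and E9. Bmper kept both calls under every alternative run except the fit of only AVC E9 and LV E9, which left 0 of the 10 genes called at E9. The floor of 16 left 1 call at E10 and 1 at E9 (Bmper), and log2 of value plus 50 gave 4 calls at E10, 1 for age in the AVC and 1 in the LV. The filter on dim probes gave 1 call for age in the LV. Leaving out each array in turn gave 2 to 3 calls at E10, 1 to 2 at E9, 0 in AVC age and 0 to 1 in LV age. Tissue by age gave 0 calls throughout. Only for the tissues at E9 was every array closest to its own replicate number. There, deviations of same-numbered arrays correlated between 0.09 and 0.28, and those of differently numbered arrays between −0.21 and 0.001. In the other comparisons replicate numbers did not pair the arrays. Same-numbered arrays correlated between −0.10 and 0.12 for the tissues at E10, −0.07 and 0.13 for age in the AVC, and −0.32 and 0.004 in the LV. With the replicate block, 1 member was called for age in the LV (Bmp5, adjusted p = 0.0357 by limma), no other call among the 10 genes changed, and the calls over all genes were 419, 134, 66 and 794, against 438, 195, 105 and 452 without it (AVC over LV at E10 and at E9, age in the AVC, age in the LV).

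Small log2 differences changed sign, and the cause was not tested. Bmp5 in AVC over LV was −0.14 at E10 after quantile normalization, −0.14 after 75th percentile scaling and −0.12 without the 3 arrays (−0.057 to 0.24 leaving out 1 array), and at E9 −0.092 and −0.099 after those scalings (−0.14 to 0.22). Bmp7 for age in the LV was 0.052 and 0.018 after those scalings and 0.36 without the 3 arrays (−0.28 to 0.36), and in AVC over LV at E9 it ran from −0.18 to 0.062. For age in the AVC, without the 3 arrays, Bmp2 was −0.45 (−0.057 to 0.70 leaving out 1 array), Bmper −0.091 (−0.11 to 0.33) and Bmpr1a −0.11 (−0.064 to 0.17), with Bmpr1a −0.0094 after 75th percentile scaling. There Bmp4 ran from −0.0090 to 0.79 and Smad6 from −0.52 to 0.077. Acvr1 for age in the LV ran from −0.022 to 0.14.

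Higher and lower calls over all genes at E10 were 392 and 46 as deposited, 189 and 84 after quantile normalization and 148 and 135 after 75th percentile scaling. At E9 they were 163 and 32, 99 and 52, and 96 and 107. For age in the AVC they were 82 and 23, 37 and 14, and 50 and 53, and in the LV 261 and 191, 267 and 242, and 272 and 441. In the order of the 4 comparisons above, all calls numbered 72, 83, 21 and 75 with only the groups compared, 797, 376, 600 and 1233 with log2 of value plus 50, 532, 321, 269 and 874 with the filter, 445, 180, 182 and 314 with the floor of 16, and 1530, 392, 1950 and 3938 without the 3 arrays. Leaving out 1 array gave 97 to 730, 59 to 422, 25 to 465 and 54 to 2630, the highest without LV E10 replicate 1 in the first 2 and the last and without AVC E10 replicate 1 in the third. Tissue by age had 6 calls, and 163 without the 3 arrays. Signal near background limits Bmp2, Bmp10 and Smad7.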
